A study of Mus musculus with 8 samples.

Results

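Of 7 genes for steroid and thyroid hormone signalling 6 were measured in epididymal fat of mice that lack the succinate receptor SUCNR1. Among these 6 the oestrogen receptor gene Esr1 had the largest difference. All 4 Sucnr1-/- mice lay above all 4 WT mice for it. The 7 genes were Esr1 (the oestrogen receptor alpha), Nr3c1 (the glucocorticoid receptor), Nr3c2 (the mineralocorticoid receptor), Thra and Thrb (the thyroid hormone receptors), Hsd11b1 (the enzyme that makes active glucocorticoid inside cells) and Fkbp5 (a glucocorticoid-induced co-chaperone of the receptor). They were chosen by their known roles and by their Sucnr1-/- minus WT differences on these same arrays, so those differences are given as a description and without a test. Each gene was read from a probe set annotated to exactly 1 gene symbol, which left 6 of the 7 among 18820 measured genes, with 1 probe set each. Thra was the exception, since its 2 probe sets also carry the symbol of Nr1d1.

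Steroid and thyroid hormone receptors are transcription factors of the nuclear receptor family. They bind a small lipophilic hormone, exchange coregulators and act on DNA elements near their target genes. In fat, glucocorticoids drive adipocyte differentiation and lipid turnover, HSD11B1 regenerates them from inert precursors, oestrogen receptor alpha restrains fat mass in both sexes, the mineralocorticoid receptor takes part in adipogenesis, and thyroid hormone drives genes of lipid synthesis and heat production.

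Total RNA came from the epididymal white fat pad, a visceral depot next to the testis, and each mouse had 1 Affymetrix array that covers whole transcripts. The first group held 4 male Sucnr1-/- mice and the second 4 male WT mice, all on a C57BL/6 background and bred by intercrossing heterozygotes. All 8 mice received a low-fat diet (LFD) for 16 weeks, starting at 8 to 10 weeks of age by the labels, and were killed at 24 to 26 weeks. Both groups thus share sex, background and diet, and none received a hormone. The mutation removes the receptor from the whole body and not from 1 cell type, by a cassette put in place of much of exon 2. The deposited values are log2 expression made with robust multi-array average (RMA), which brings the arrays to 1 distribution. A value can thus be compared between mice. Between genes it is used only as a coarse rank of bright and dim, and not as an amount of RNA.

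The 8 arrays had medians of 6.28 to 6.36, and any 2 of them correlated at 0.981 to 0.993 over all probe sets. Sucnr1 itself had a log2 difference of −3.05 (SE 0.36), with no overlap of the groups. Adipocyte markers averaged 12.78 to 12.86 in Sucnr1-/- mice and 12.59 to 12.84 in WT mice. Markers of the epididymis, the neighbouring organ, averaged 4.41 to 4.52 in Sucnr1-/- mice and 4.28 to 4.84 in WT mice. The 4.84 was that of WT mouse 2, and the other WT mice had 4.28 to 4.41. Over all genes 10004 had a higher and 8816 a lower mean in Sucnr1-/- mice, with a median difference of 0.01. With limma 0 genes passed an adjusted p of 0.05 (0% of 18820 genes). The lowest adjusted p was 0.321. An unadjusted p under 0.05 was found for 1284 genes, 652 higher in Sucnr1-/- mice (3.46%) and 632 lower (3.36%). The methods' t-test gave 1247 genes at an unadjusted p under 0.05 and 0 after Benjamini-Hochberg adjustment. WT mouse 1 stood apart: it had the highest mean of the immediate early genes, 8.97, and the lowest mean of the adipocyte markers. Sucnr1-/- mouse 1 was second for the immediate early genes, at 8.68, against 7.64 to 7.96 in the other Sucnr1-/- mice and 7.92 to 8.18 in WT mice 2 to 4. For the pathway lists, calls that changed without WT mouse 1 are given with and without it. In whole tissue, fewer cells of a type and less RNA per cell cannot be told apart.

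Esr1 read 9.05, 9.30, 9.04 and 9.30 in the 4 Sucnr1-/- mice, against 8.33, 8.60, 8.68 and 8.62 in the 4 WT mice. Every Sucnr1-/- mouse lay above every WT mouse, with 0.36 log2 units between the lowest Sucnr1-/- mouse and the highest WT mouse. The group means were 9.17 ± 0.15 in Sucnr1-/- mice and 8.56 ± 0.16 in WT mice (SD, n = 4 each). This is a log2 difference of 0.62 (SE 0.10), or 1.53-fold, and ranked 16th from the top of 18820 genes. All Sucnr1-/- mice lay above all WT mice for 446 genes (2.37%), and all lay below for 352 (1.87%). Leaving out each mouse in turn kept the difference of Esr1 between 0.54 and 0.66.

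**Figure D1:**
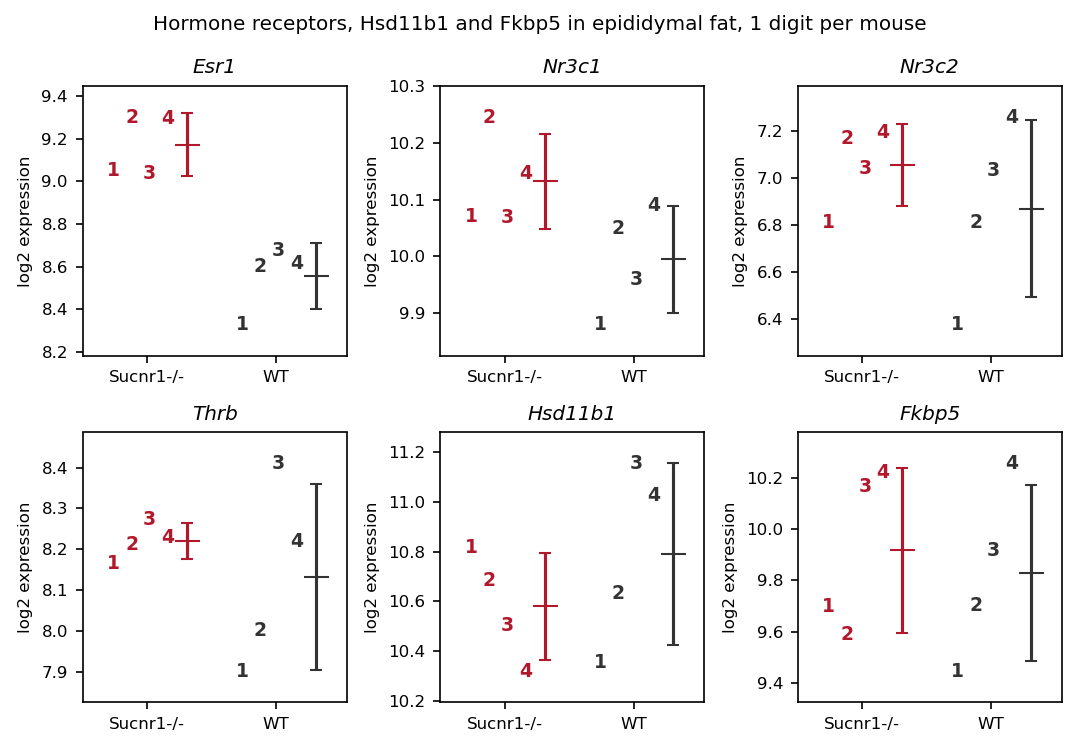
Log2 expression (vertical axis, a separate range for each gene) of the 6 measured genes, 1 digit per mouse giving its replicate number, with the mean and SD of each genotype beside it (n = 4 each). Only the groups of Esr1 do not overlap, and WT mouse 1 is the lowest WT mouse in all 6 panels.

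The promoter of Esr1 is shown because Esr1 was the member whose groups did not overlap. RefSeq (GRCm38.p6) gives this gene 2 start sites on chromosome 10, and each window runs from 250 bases before the start to 50 after it, on the plus strand. The windows were searched on both strands for AGAACA, a half-site of the glucocorticoid element, and AGGTCA, a half-site that oestrogen and thyroid hormone receptors share. They were also searched for the glucocorticoid palindrome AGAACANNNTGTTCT, the oestrogen palindrome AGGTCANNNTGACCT and the thyroid hormone direct repeat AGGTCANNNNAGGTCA, each of which contains a half-site. Capitals would mark a match, and neither window of Esr1 holds one of these strings.
Esr1 chr10:4611739-4612038: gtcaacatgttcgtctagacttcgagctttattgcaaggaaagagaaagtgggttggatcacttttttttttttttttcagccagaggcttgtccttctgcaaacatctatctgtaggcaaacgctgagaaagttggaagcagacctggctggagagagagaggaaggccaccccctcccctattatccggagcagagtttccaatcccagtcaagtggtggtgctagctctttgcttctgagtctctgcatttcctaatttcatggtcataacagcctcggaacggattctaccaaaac
Esr1 chr10:4709908-4710207: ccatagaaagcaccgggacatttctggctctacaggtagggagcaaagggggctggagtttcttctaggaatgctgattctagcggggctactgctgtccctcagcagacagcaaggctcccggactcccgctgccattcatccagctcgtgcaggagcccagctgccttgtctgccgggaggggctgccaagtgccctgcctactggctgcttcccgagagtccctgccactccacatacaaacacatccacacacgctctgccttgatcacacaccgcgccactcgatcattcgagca
The first window has 46.3% G and C and the second 59.3%. Among 27025 genes with a window, AGAACA occurs in 21.3% and AGGTCA in 18.1%, so a window without them is common.

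Genes known to respond to oestrogen were divided in direction. Of 14 genes of oestrogen response and membrane reception 12 were measured, 5 higher and 7 lower in Sucnr1-/- mice by their means, and 0 in either direction had an unadjusted p under 0.05. Their median difference was −0.06, against 0.01 over all genes, and −0.02 without either WT mouse 1 or WT mouse 4. Igfbp4, a binding protein for insulin-like growth factors, read 12.02, 12.23, 12.21 and 12.44 in Sucnr1-/- mice and 11.75, 11.94, 12.19 and 12.11 in WT mice, a difference of 0.23 (SE 0.12) with overlapping groups. Pgr, the progesterone receptor, differed by −0.11 (SE 0.08) and Greb1, a coactivator of the oestrogen receptor, by 0.08 (SE 0.06). Esr2, the other oestrogen receptor, averaged 4.18 in Sucnr1-/- mice and 4.13 in WT mice. Pgr, Greb1 and Esr2 were dim, with mean levels above only 15.2%, 5.3% and 9.5% of all genes, so their differences say little. Of the 12 list genes 8 remained when the dimmest 40% of all genes were dropped, with a median difference of −0.08.

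Genes whose level follows that of Esr1 from mouse to mouse were sought by the root mean square difference of centred log2 values over the 8 mice. The closest was Ankef1, at 0.08, followed by Kcns3, a voltage-gated potassium channel subunit, at 0.09, and Snhg11, a small nucleolar RNA host gene, at 0.10. Ankef1 read 8.13, 8.46, 8.10 and 8.18 in Sucnr1-/- mice, against 7.28, 7.59, 7.70 and 7.74 in WT mice. For all 3 genes the Sucnr1-/- mice lay above the WT mice, as the choice by likeness to Esr1 makes likely.

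The glucocorticoid receptor gene Nr3c1 read 10.07, 10.25, 10.07 and 10.15 in Sucnr1-/- mice and 9.88, 10.05, 9.96 and 10.09 in WT mice. The groups overlapped by a narrow margin, because WT mouse 4 lay above Sucnr1-/- mice 1 and 3. Means were 10.13 ± 0.08 in Sucnr1-/- mice and 9.99 ± 0.09 in WT mice (SD, n = 4 each), a difference of 0.14 (SE 0.07). It was 0.10 without WT mouse 1, and 0.10 to 0.17 when each mouse was left out in turn.

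Hsd11b1, which supplies the receptor with its ligand, was the 1 member whose mean was below that of WT. It read 10.82, 10.68, 10.50 and 10.32 in Sucnr1-/- mice and 10.35, 10.63, 11.15 and 11.02 in WT mice. WT mice 3 and 4 lay above all other mice, while WT mouse 1 lay beside the lowest Sucnr1-/- mouse. Means were 10.58 ± 0.22 in Sucnr1-/- mice and 10.79 ± 0.37 in WT mice (SD, n = 4 each), a difference of −0.21 (SE 0.18). The difference was −0.36 without WT mouse 1 and −0.09 without WT mouse 3, so its size depends on single WT mice. H6pd, which makes the NADPH that HSD11B1 needs, averaged 12.24 in Sucnr1-/- mice and 12.26 in WT mice. Hsd11b2, the enzyme that inactivates glucocorticoid, differed by 0.06 (SE 0.10).

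Fkbp5 is a target of the glucocorticoid receptor that in turn holds the receptor in a state of low affinity. It read 9.70, 9.59, 10.17 and 10.22 in Sucnr1-/- mice and 9.45, 9.70, 9.92 and 10.26 in WT mice. The spread within each genotype was wider than the distance between them, with means of 9.92 ± 0.32 in Sucnr1-/- mice and 9.83 ± 0.34 in WT mice (SD, n = 4 each) and a difference of 0.09 (SE 0.20). Its sign turned when WT mouse 1 (−0.04) or Sucnr1-/- mouse 4 (−0.01) was left out.

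Other targets of the glucocorticoid receptor were read in 2 lists. The first held 24 genes outside the early transcriptional response, all measured, of which 16 had a higher and 8 a lower mean in Sucnr1-/- mice. Their median difference was 0.10, against 0.01 over all genes, and 0.04 without WT mouse 1. An unadjusted p under 0.05 was reached by 1 gene upward and 0 downward. No gene of the list reached it without WT mouse 1. The gene was Zbtb16, a zinc finger repressor induced by glucocorticoids, which read 11.51, 11.92, 11.98 and 11.99 in Sucnr1-/- mice and 10.92, 11.24, 11.75 and 11.70 in WT mice. Its difference was 0.45 (SE 0.20; limma, adjusted p = 0.719), and 0.29 (SE 0.16) without WT mouse 1. Sucnr1-/- mouse 1 lay below WT mice 3 and 4. Klf15, a regulator of amino acid and lipid use, differed by 0.38 (SE 0.22) and Cdkn1c, an inhibitor of the cell cycle, by 0.23 (SE 0.11). Tsc22d3, which encodes the glucocorticoid-induced leucine zipper, averaged 10.73 in Sucnr1-/- mice and 10.24 in WT mice, a difference of 0.49 (SE 0.33). Lcn2, a lipocalin that inflammation also induces, went the other way, at −0.61 (SE 0.43).

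The second list held 9 targets that belong to the early response too, 4 higher and 5 lower in Sucnr1-/- mice, with a median difference of −0.08. Rgs2, a brake on G protein signalling, had the clearest positive value, 0.43 (SE 0.14; limma, adjusted p = 0.712). Rgs2 read 8.62, 8.85, 9.14 and 9.15 in Sucnr1-/- mice and 8.44, 8.55, 8.75 and 8.31 in WT mice. Per1, a clock gene, differed by 0.42 (SE 0.23). Cdkn1a, an inhibitor of cell cycle kinases, differed by −0.51 (SE 0.26). The mean of this list was 9.70 to 10.09 in Sucnr1-/- mice and 9.86 to 10.16 in WT mice, with WT mouse 1 highest. Its median was 0.05 without WT mouse 1. Immediate early genes, which handling of tissue can induce, had a median difference of −0.28 (3 higher, 12 lower). It was −0.11 without WT mouse 1, −0.63 without Sucnr1-/- mouse 1 and −0.05 without Sucnr1-/- mouse 4, so single mice of both genotypes set its size. Jun went against the median, at 0.28 (SE 0.08; limma, adjusted p = 0.712), with every Sucnr1-/- mouse above every WT mouse. Its difference was 0.32 (SE 0.08) without WT mouse 1. Fos differed by −0.68 (SE 0.31). The part of the immediate early genes in the second list was not tested.

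Across the 8 mice Fkbp5 and the mean of the 24 targets outside the early response moved together. The mean of the targets was 10.12, 10.13, 10.20 and 10.23 in Sucnr1-/- mice and 9.92, 10.03, 10.12 and 10.24 in WT mice, so the mouse with the lowest Fkbp5 (WT mouse 1) and the mouse with the highest (WT mouse 4) were also lowest and highest here. Pearson's r was 0.88 (exact two-sided permutation p = 0.00151, adjusted over 3 relations 0.00454, n = 8), and Spearman's rho was 0.79 (exact permutation p = 0.0279, adjusted 0.0551). With the values centred on each genotype mean r was 0.92 (exact permutation, adjusted p = 0.0208). Without the 2 mice farthest from the median of Fkbp5, Sucnr1-/- mouse 4 and WT mouse 4, r was 0.79 (exact permutation p = 0.075, adjusted 0.225, n = 6). The relation did not pass without those mice, but fewer mice also raise p, so whether it rests on them cannot be told. Without Sucnr1-/- mouse 4 alone r was 0.86 (exact permutation, adjusted p = 0.0357, n = 7). Without WT mouse 4 alone it was 0.85 (exact permutation, adjusted p = 0.0482, n = 7). Without WT mouse 1 r was 0.85 (exact permutation, adjusted p = 0.0756, n = 7).

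The other relations were weaker. For Nr3c1 r was 0.62 (exact permutation p = 0.0959, adjusted 0.144, n = 8) and rho 0.76 (exact permutation p = 0.0368, adjusted 0.0551). It was 0.22 without WT mouse 1, 0.82 without Sucnr1-/- mouse 2 (exact permutation, adjusted p = 0.0271) and 0.56 without these 2 mice, which were the farthest from the median of Nr3c1. For Hsd11b1 r was 0.26 (exact permutation p = 0.547, adjusted 0.547, n = 8) and rho 0.05 (exact permutation p = 0.935). Without WT mouse 1 this r was −0.15, and without WT mice 3 and 4, the 2 farthest from the median of Hsd11b1, it was 0.04. The adipocyte marker mean was 12.78, 12.86, 12.80 and 12.85 in Sucnr1-/- mice and 12.59, 12.73, 12.78 and 12.84 in WT mice, also lowest in WT mouse 1. Its part in these relations was not tested.

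**Figure D2:**
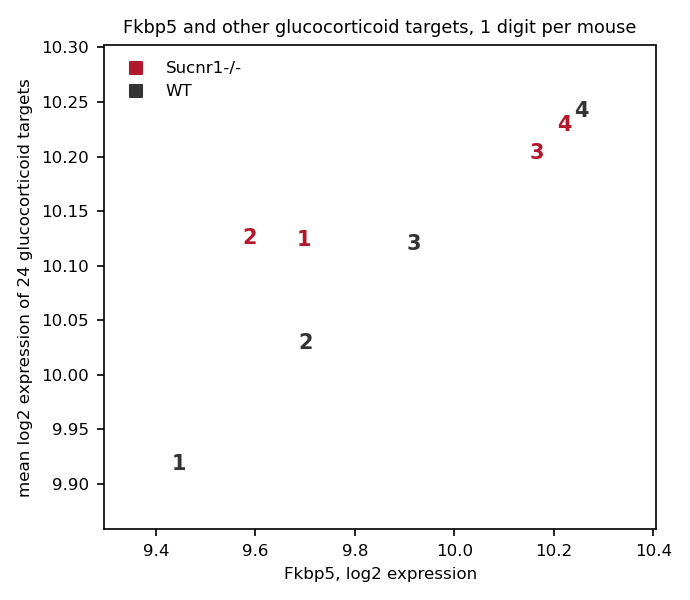
Fkbp5 (horizontal axis, log2 expression) against the mean log2 expression of 24 other glucocorticoid targets (vertical axis), 1 digit per mouse giving its replicate number. WT mouse 1 is lowest on both axes, WT mouse 4 is highest on both, and r over the 8 mice is 0.88.

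The chaperones that hold steroid receptors ready to bind hormone had a median difference of −0.07, with 4 of 12 measured genes higher and 8 lower. It lay between −0.11 without Sucnr1-/- mouse 1 and −0.02 without Sucnr1-/- mouse 4, and was −0.03 without WT mouse 1. Bag1, a co-chaperone that binds HSP70 and modulates steroid receptors, was the 1 gene with an unadjusted p under 0.05. It read 10.65, 10.71, 10.65 and 10.63 in Sucnr1-/- mice and 10.30, 10.40, 10.46 and 10.44 in WT mice, so every Sucnr1-/- mouse lay above every WT mouse. Its difference was 0.26 (SE 0.06; limma, adjusted p = 0.712). Hspa8, the constitutive HSP70, differed by −0.10 (SE 0.07), Ahsa1, an activator of HSP90, by −0.15 (SE 0.09), and Fkbp4, the counterpart of Fkbp5 that aids receptor transport, by −0.02 (SE 0.09).

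Of 15 measured coregulators 6 were higher and 9 lower, with a median difference of −0.04. Hdac3, the deacetylase of the nuclear receptor corepressor complex, read 11.15, 11.33, 11.22 and 11.08 in Sucnr1-/- mice and 10.89, 11.02, 10.98 and 11.03 in WT mice. Its groups did not overlap, and its difference was 0.21 (SE 0.07; limma, adjusted p = 0.712). It was the 1 coregulator at an unadjusted p under 0.05, and Ppargc1b, a relative of Ppargc1a, joined it without WT mouse 1 (−0.42, SE 0.15). Ppargc1a, a coactivator of many nuclear receptors, differed by 0.40 (SE 0.25), with WT mouse 1 far below the other WT mice. Smarca4, an ATPase of chromatin remodelling, differed by −0.11 (SE 0.07).

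Enzymes of steroid synthesis and conversion had a median difference of −0.04 over 23 measured genes, and −0.11 without WT mouse 1. Of these 8 were higher and 15 lower, and 0 in either direction had an unadjusted p under 0.05. Akr1c18, which inactivates progesterone, passed upward without WT mouse 1 (0.49, SE 0.14). Cyp1b1, which hydroxylates oestradiol, read 9.72, 9.37, 9.50 and 9.41 in Sucnr1-/- mice and 10.17, 9.87, 9.62 and 9.56 in WT mice, a difference of −0.30 (SE 0.14). Only Sucnr1-/- mouse 1 reached into the range of the WT mice. Cyp21a1, a steroid hydroxylase of the adrenal, differed by 0.33 (SE 0.15) and Cyp11a1, which cleaves the side chain of cholesterol, by −0.20 (SE 0.10). Both were dim, with mean levels above 29.4% and 27.9% of all genes. Of the 23 enzymes only 9 remained when the dimmest 40% of all genes were dropped, with a median difference of −0.14.

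The mineralocorticoid receptor gene Nr3c2 read 6.81, 7.17, 7.04 and 7.19 in Sucnr1-/- mice and 6.37, 6.81, 7.03 and 7.26 in WT mice. All Sucnr1-/- values lay within the range of the WT mice. Means were 7.05 ± 0.17 in Sucnr1-/- mice and 6.87 ± 0.38 in WT mice (SD, n = 4 each), a difference of 0.18 (SE 0.18). Without WT mouse 1 it was 0.02. The genes closest to Nr3c2 over the 8 mice were Prkaa2, a catalytic subunit of the energy sensor AMPK, at a root mean square difference of 0.04, Alas1, the first enzyme of haem synthesis, at 0.05, and Shroom3, a cytoskeletal regulator, at 0.07. Prkaa2 read 7.47, 7.83, 7.69 and 7.82 in Sucnr1-/- mice and 7.03, 7.54, 7.79 and 7.97 in WT mice. For Hsd11b1 the closest genes were Trim29 at 0.09, Acad12 at 0.12 and Zfp780b at 0.12.

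Genes of mineralocorticoid action and the renin-angiotensin system included 3 that were lower at an unadjusted p under 0.05 and 0 higher, of 11 measured. Over all genes 3.36% were lower and 3.46% higher at this threshold, and 1 gene of the list stayed lower at it without WT mouse 1. Sgk1, the kinase that aldosterone and glucocorticoids induce and which is in the second glucocorticoid list too, read 9.05, 9.11, 9.09 and 9.14 in Sucnr1-/- mice and 9.26, 9.27, 9.31 and 9.16 in WT mice. Every Sucnr1-/- mouse lay below every WT mouse, though WT mouse 4 lay close, and the difference was −0.15 (SE 0.06; limma, adjusted p = 0.712). Nedd4l, the ubiquitin ligase that SGK1 inhibits, read 9.73, 9.45, 9.62 and 9.46 in Sucnr1-/- mice and 10.15, 9.87, 9.56 and 10.05 in WT mice, a difference of −0.34 (SE 0.13; limma, adjusted p = 0.712). Scnn1a, the alpha subunit of the epithelial sodium channel, differed by −0.33 (SE 0.14; limma, adjusted p = 0.719). As a list 5 genes were higher and 6 lower, with a median difference of −0.08. The list mean was 7.73 to 7.80 in Sucnr1-/- mice and 7.85 to 7.88 in WT mice, without overlap. Lcn2, which is in the first glucocorticoid list too, had the largest difference of the 11 genes, −0.61 (−0.39 without WT mouse 1). It thus weighs most in the difference of the list means, and a list mean without it was not examined. Without WT mouse 1 the median was −0.07 and 1 gene, Scnn1a, was lower at an unadjusted p under 0.05, while Sgk1 (−0.15, SE 0.06) and Nedd4l (−0.26, SE 0.13) no longer passed. The median of the 11 genes, unlike the list mean, was near 0 (0.0042) without Sucnr1-/- mouse 1. Agt, the precursor of angiotensin, differed by 0.11 (SE 0.16) and its receptor Agtr1a by −0.12 (SE 0.17). Macrophage markers were lower as well, 13 of 14 with a median of −0.34 and list means of 10.20 to 10.55 in Sucnr1-/- mice against 10.52 to 10.97 in WT mice. Mast cell markers were lower in 6 of 6, with list means of 6.60 to 6.81 in Sucnr1-/- mice and 7.07 to 7.42 in WT mice, also without overlap. The part of these cells in the values of this list was not tested.

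The promoter of Sgk1 is shown because this gene is 1 of only 3 among 27025 (0.011%) whose window holds the whole glucocorticoid palindrome, which the mineralocorticoid receptor also binds. The others are Acnat2, with a difference of −0.16, and Gm35041, which was not measured. Sgk1 has 6 windows in RefSeq (GRCm38.p6), and the one printed lies on the plus strand of chromosome 10. Capitals mark the palindrome, 189 bases before the start, and a further half-site 242 bases before it. A string match is a description and not a site that was shown to be bound.
Sgk1 chr10:21993640-21993939: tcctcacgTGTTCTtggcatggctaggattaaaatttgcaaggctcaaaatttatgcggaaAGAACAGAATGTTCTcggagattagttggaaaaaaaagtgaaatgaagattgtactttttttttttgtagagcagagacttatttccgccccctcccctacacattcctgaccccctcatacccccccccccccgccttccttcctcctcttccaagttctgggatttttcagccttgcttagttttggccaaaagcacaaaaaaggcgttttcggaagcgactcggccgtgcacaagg
Among the 20 glucocorticoid targets outside the early response that have a window, 7 (35%) hold the half-site AGAACA and 0 the palindrome. Of the 7 member genes 5 have a window, and 0 of these hold a palindrome or the direct repeat. Fkbp5, Hsd11b1, Nr3c2 and Esr1 hold neither half-site. Nr3c1 and Thra were not among the windows used.

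Of the thyroid hormone receptor genes only Thrb could be read by itself. It had 8.17, 8.21, 8.27 and 8.23 in Sucnr1-/- mice, which lay close together, and 7.90, 8.00, 8.41 and 8.22 in WT mice, which did not. Means were 8.22 ± 0.04 in Sucnr1-/- mice and 8.13 ± 0.23 in WT mice (SD, n = 4 each), a difference of 0.09 (SE 0.11). Without WT mouse 1 it was 0.01.

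Thra and Nr1d1 lie on opposite strands and overlap at their ends, and both probe sets that name Thra name Nr1d1, a clock repressor, as well. The first read 10.74, 10.96, 10.84 and 11.00 in Sucnr1-/- mice and 10.31, 10.56, 10.80 and 10.69 in WT mice, and the second 11.68, 11.89, 11.63 and 11.40 in Sucnr1-/- mice and 11.43, 11.59, 11.46 and 11.59 in WT mice. Their differences were 0.30 and 0.13, with overlapping groups in both, and cannot be given to either gene. Nr1d2, the relative of Nr1d1 with a probe set of its own, differed by 0.28 (SE 0.14).

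The windows of Thrb are shown because it was the 1 member with any of the strings searched for. RefSeq (GRCm38.p6) gives it 2 start sites, both on the plus strand of chromosome 14. Capitals mark AGGTCA in the first, 184 bases before the start, and AGAACA in the second, once in each orientation, 23 and 7 bases before the start.
Thrb chr14:17660710-17661009: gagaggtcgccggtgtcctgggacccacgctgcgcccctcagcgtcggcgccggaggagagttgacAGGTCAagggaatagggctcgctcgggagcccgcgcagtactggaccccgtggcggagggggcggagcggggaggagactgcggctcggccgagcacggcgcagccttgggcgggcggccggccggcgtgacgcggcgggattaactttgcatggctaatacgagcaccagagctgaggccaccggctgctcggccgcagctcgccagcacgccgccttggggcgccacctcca
Thrb chr14:17981394-17981693: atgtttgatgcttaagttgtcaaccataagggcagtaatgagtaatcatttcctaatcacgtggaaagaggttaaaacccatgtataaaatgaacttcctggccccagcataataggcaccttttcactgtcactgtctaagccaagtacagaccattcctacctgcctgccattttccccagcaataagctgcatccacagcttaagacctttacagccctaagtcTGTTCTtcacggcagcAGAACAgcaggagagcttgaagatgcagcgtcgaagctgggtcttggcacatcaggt
The first window is rich in G and C (72.7%) and the second is not (46.0%). At 21.3% and 18.1% of all genes with a window, both half-sites are frequent strings.

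Genes that deliver or convert thyroid hormone had 2 higher and 8 lower of 10 measured, a median difference of −0.08 (−0.17 without WT mouse 2) and 0 genes at an unadjusted p under 0.05. Ttr, the plasma carrier transthyretin, ranged widely, with 7.89, 5.36, 5.40 and 5.93 in Sucnr1-/- mice and 5.31, 7.69, 5.69 and 9.80 in WT mice. High and low mice occurred in both groups, and its difference of −0.97 had an SE of 0.99. Slc7a5, a transporter of amino acids and thyroid hormone, differed by −0.57 (SE 0.42), Dio2, the deiodinase that activates the hormone, by −0.09 (SE 0.16), and Tshr, the thyrotropin receptor, by 0.12 (SE 0.12).

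Targets of thyroid hormone were divided, 6 higher and 7 lower of 13 measured, with a median difference of −0.05 that changed sign with single mice left out (−0.06 to 0.02). Fasn, the fatty acid synthase, read 11.60, 11.82, 11.82 and 11.70 in Sucnr1-/- mice and 11.00, 11.66, 11.26 and 11.66 in WT mice. Its difference of 0.34 (SE 0.15; limma, adjusted p = 0.719) was the 1 value of the list at an unadjusted p under 0.05, and was 0.21 (SE 0.12) and no longer passed without WT mouse 1. Thrsp, a lipogenic protein that responds to thyroid hormone, differed by 0.30 (SE 0.15). Acaca, the carboxylase before Fasn in the same pathway, differed by −0.17 (SE 0.12), and passed downward without WT mouse 1 at −0.28 (SE 0.09). Ucp1, the uncoupling protein of brown fat, differed by −0.12 (SE 0.11).

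**Figure D3:**
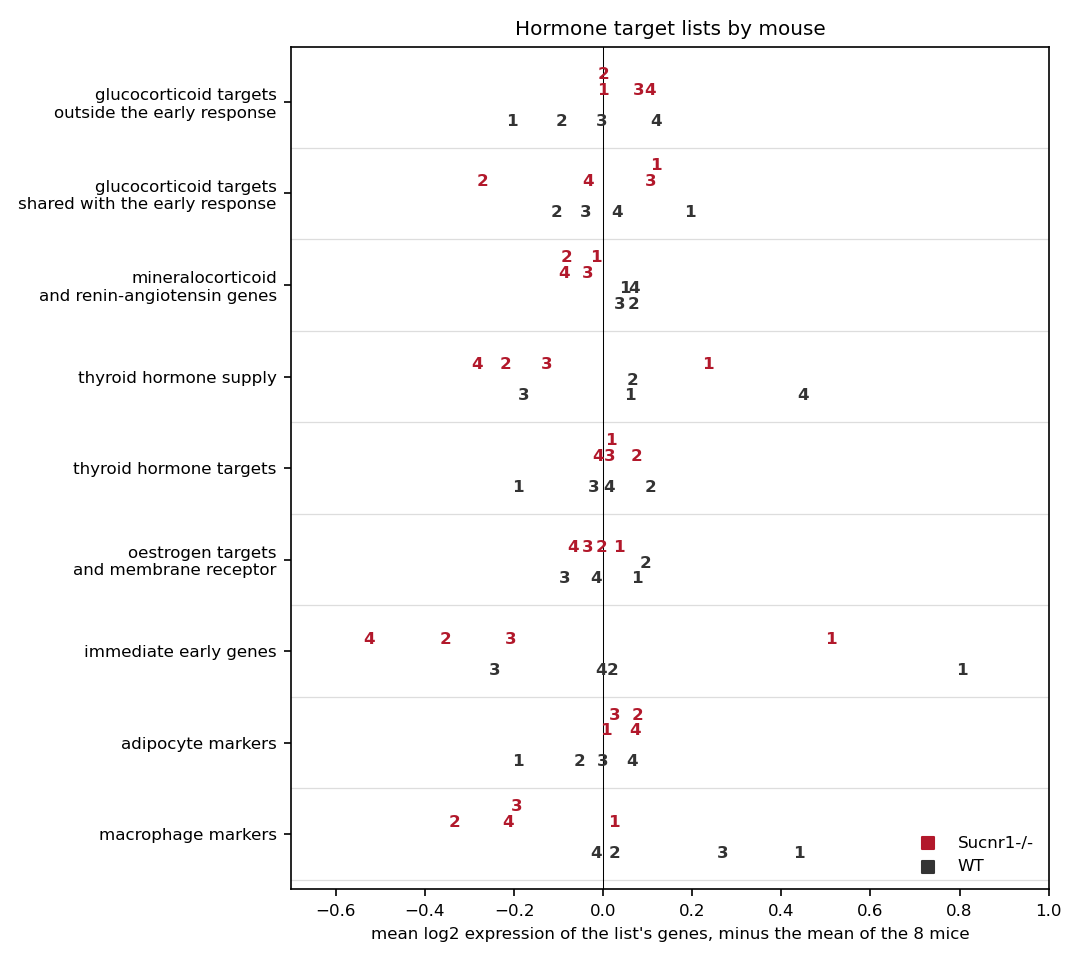
Mean log2 expression of each list (horizontal axis, minus the mean of the 8 mice), 1 digit per mouse giving its replicate number, with Sucnr1-/- mice above WT mice in each row. In the mineralocorticoid and renin-angiotensin row the genotypes do not overlap (7.73 to 7.80 in Sucnr1-/- mice and 7.85 to 7.88 in WT mice before centring), whereas WT mouse 1 is at the end of several other rows.

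Over the 11 lists of pathway genes, 173 genes were measured, of which 6 were higher and 6 lower at an unadjusted p under 0.05, close to the 3.46% and 3.36% of all genes. Among the other nuclear receptors 18 were higher and 20 lower of 38 measured, with a median difference of −0.01, and −0.05 without WT mouse 1. None of these 38 lay above all WT mice in every Sucnr1-/- mouse, where 2.37% of all genes did, so few would at the share of all genes. Of them 0 were higher and 3 lower at an unadjusted p under 0.05, and 2 lower without WT mouse 1, when Nr2f6 no longer passed. Vdr, the vitamin D receptor, read 6.69, 6.35, 6.54 and 6.32 in Sucnr1-/- mice and 7.29, 6.71, 6.77 and 6.99 in WT mice, without overlap, a difference of −0.46 (SE 0.14; limma, adjusted p = 0.712). Nr4a1, an orphan receptor of the early response, differed by −0.74 (SE 0.25) and Nr2f6, another orphan receptor, by −0.21 (SE 0.09; limma, adjusted p = 0.712 for both). Pparg, the receptor that drives adipocyte differentiation, averaged 12.45 in Sucnr1-/- mice and 12.42 in WT mice. Rxra and Rxrg, partners of the thyroid hormone receptor, differed by 0.12 (SE 0.09) and 0.36 (SE 0.19).

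**Figure D4:**
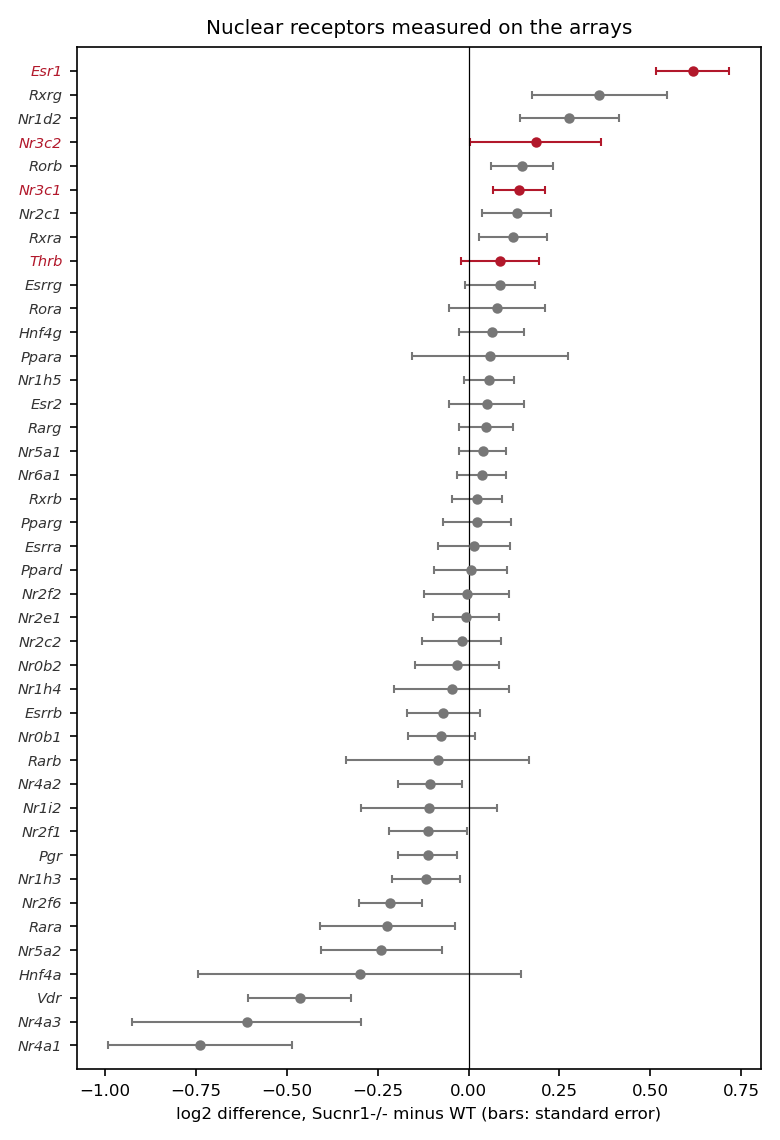
Log2 difference, Sucnr1-/- minus WT (horizontal axis), of 4 member receptors (red) and 38 other nuclear receptors (grey), 1 point per gene with bars of 1 standard error, 4 mice per genotype. Esr1 is at the top with 0.62 and Nr4a1 at the bottom with −0.74, and most other receptors lie near 0.

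WT mouse 1 had the lowest value of the 4 WT mice for 6 of the 6 measured members, and the lowest of all 8 mice for 5 of them, Hsd11b1 being the exception. Over all genes it was the lowest WT mouse for 34.0% and the lowest of 8 for 24.2%. It was the lowest of 8 for 12 of 13 adipocyte markers and for 6 of 6 epididymis markers. It was the highest of 8 for 10 of 15 immediate early genes, 5 of 14 macrophage markers and 4 of 5 B cell markers, against 18.2% of all genes. Without this mouse the differences were 0.02 for Nr3c2, 0.01 for Thrb, −0.04 for Fkbp5 and 0.54 for Esr1. B cell markers had a median difference of −0.96 (0 higher, 5 lower) and −0.31 without WT mouse 1. Mast cell markers had −0.50 with and −0.56 without it. The part of these cells in the members' values was not tested.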

How the data were processed

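RNA of 8 epididymal fat pads was measured on Affymetrix whole-transcript arrays, 1 per mouse, 4 Sucnr1-/- and 4 WT. The deposited log2 values were made by the authors with RMA, as the submitters' processing notes name it. Its version, a genome build and scan dates are not given in the sources used here, so no batch was examined. RMA equalises the arrays and compresses low values. Of 35556 probe sets 21218 carried exactly 1 gene symbol, 1881 several and 12457 none. 21185 of the first were matched to RefSeq by Entrez ID, with 0 renamed. For 1386 genes with several probe sets the brightest mean was used.

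The members and lists were chosen with earlier results of these data known. Differences are Sucnr1-/- minus WT. Genes were compared with limma 3.58.1 in R 4.3.3 (lmFit, eBayes; 2.67 prior degrees of freedom), with Benjamini-Hochberg adjustment over 18820 genes. Members received no test. Lists (11 of pathways, 12 of cell markers; 35 of 295 genes not analysed here) are described by counts and medians. Relations were tested by exact two-sided permutation, adjusted over 3. The limma step was tested on simulated data.

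Named genes were the 7 members, up to 3 genes of smallest p from each pathway list, the 3 nearest patterns of the 3 members with the widest range, Nr1d1 and Sucnr1. Other genes were named for their role after their values were seen. Replicates are separate mice, and 4 arrays per group limit the precision. Alternatives were the variance prior, array weights, the methods' t-test, a filter that drops the dimmest 40% of genes, centring, quantile normalization, the mean of probe sets, the replicate number as a block, the early targets added to the glucocorticoid list, and leaving out each mouse. Centring on named genes was chosen after seeing the data. Promoter windows (300 bases) are those of RefSeq, GRCm38.p6, used for sequence alone. Figures were drawn with matplotlib 3.10.9.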

Additional observations from a re-analysis of the deposited data

Results flagged for a closer look

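For 46 named genes, 92 groups of 4 mice were examined for 1 mouse far from the other 3, and 6 groups had one. Chance gives about 1 in 20 groups. Ppargc1a read 6.75 in WT mouse 1 and 7.65 to 7.70 in the other WT mice. Klf15 read 8.19 in WT mouse 1, against 8.94 to 9.05 in the other WT mice. Zbtb16 read 11.51 in Sucnr1-/- mouse 1 and 11.92 to 11.99 in the other Sucnr1-/- mice. Thrsp read 11.35 in the same Sucnr1-/- mouse, against 11.46 to 11.48 in the others. Scnn1a read 6.13 in Sucnr1-/- mouse 3, against 5.84 to 5.88, and Greb1 read 4.05 in Sucnr1-/- mouse 4, against 3.89 to 3.91. WT mouse 1 and Sucnr1-/- mouse 1 account for 4 of the 6. No member of the hormone receptor genes had such a mouse.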

How the results depend on the processing

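The count of genes at an adjusted p under 0.05 was 0 in all 17 alternatives. At an unadjusted p under 0.05, where 652 genes were higher and 632 lower, the split moved with the centring: 355 higher and 979 lower after median centring, and 1352 higher and 330 lower after centring on the median of named genes (chosen after seeing the data). The median of all genes moved by less than 0.1 under every scaling. Leaving out the lowest 40% of genes gave 369 higher and 535 lower, and leaving out each mouse 440 to 870 higher and 368 to 885 lower. Replicate numbers were not taken to pair the mice, by a rule that asked for a correlation of same-numbered deviations over 0.1 in every pair. The correlation was over 0.1 in 3 of 4 pairs (0.45, 0.14, 0.11 and 0.01 for replicates 1 to 4). Of 8 mice 4 correlated best with their own number. Whether the numbers mark pairs cannot be told from these values. With the replicate block 809 genes were higher and 1096 lower. With 1 mouse of each genotype per number the block leaves differences and medians as they are, and it gave 0 adjusted calls.

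The differences of the 6 members moved by less than 1 SD after median centring, centring on named genes and quantile normalization. The other alternatives could not move a difference by 1 SD. Leaving out 1 mouse of 4 shifts a group mean by less than that, and the mean of probe sets and the replicate block leave the difference as it is. Without WT mouse 1 the difference of Nr3c2 fell from 0.18 to 0.02 and that of Thrb from 0.09 to 0.01. Differences of Fkbp5 lay on both sides of 0 (−0.04 to 0.23). The list median of steroid enzymes, −0.04, was −0.14 without the lowest 40% of genes and −0.11 to −0.037 when each mouse was left out. After centring on named genes the median of the steroid enzymes was 0.0016, so its sign was not kept. That of mineralocorticoid and renin-angiotensin genes, −0.08, was −0.11 after median centring, −0.036 after centring on named genes, −0.14 without the lowest 40% and −0.13 to 0.0042 over the mice left out. The relation of Fkbp5 with glucocorticoid targets, r = 0.88, was 0.79 without the 2 farthest mice (exact permutation, adjusted p = 0.225) and 0.85 to 0.95 over the mice left out (0.85 and adjusted p = 0.0756 without WT mouse 1). For Nr3c1 r ranged 0.22 to 0.82 over the mice left out, and for Hsd11b1 −0.15 to 0.56, with the negative value without WT mouse 1. The causes were not tested.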
